A study of Homo sapiens with 12 samples.

Results

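The 10 genes described here encode the machinery that divides mitochondria, the machinery that fuses them, and the enzymes that cut the inner-membrane fusion protein. They were found by their Ensembl identifiers among the 28747 gene rows of a count table, and 10 of 10 had a row. DNM1L, MFF, FIS1, MIEF1 and MIEF2 act in fission, MFN1, MFN2 and OPA1 in fusion, and the proteases OMA1 and YME1L1 in the cleavage of OPA1. MIEF2 was listed at 0 in every library, so 9 of the 10 genes could be tested. The counts come from poly(A) RNA of DU145 cells, an established human prostate cancer line without androgen receptor activity, in 12 libraries. The groups are control hairpin (shCtrl) and knockdown hairpin (shSigma) cells, each grown as an adherent culture or as tumor spheres, with 3 independent replicates per group. The knockdown lines were made with lentiviral hairpins and puromycin selection. A difference due to the knockdown and one between the transduced lines cannot be told apart in this design. Whether the replicates came from separate transductions is not given in the sources used here. All groups come from 1 cell line, the labels give 1 knockdown, and which of the study's hairpins these cells carried is not given in the sources used here.

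Mitochondria are divided by DRP1, the product of DNM1L, a dynamin of the cytosol that assembles into rings on the outer membrane. It has no membrane anchor of its own and is held there by receptors, of which MFF, FIS1 and the MiD proteins encoded by MIEF1 and MIEF2 are the known ones. Fusion of outer membranes is carried out by the mitofusins MFN1 and MFN2, and MFN2 also lies at contacts with the endoplasmic reticulum. Inner membranes are fused by OPA1, whose long and short forms are set by the proteases YME1L1 and OMA1. The study asked how the knockdown affects mitochondria in bulk and sphere-forming cells. It reported shortened mitochondria after the knockdown in both bulk and sphere-forming DU145 cells. Spare respiratory capacity was reduced in sphere-forming cells and little or not affected in bulk cells. The study also reported that the DRP1, MFN2 and MFF proteins were unaltered by the knockdown in DU145 cells. The comparison here is of the RNA of the fission and fusion genes, which does not measure protein, phosphorylation, OPA1 cleavage or organelle shape.

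Total counts were between 16472722 and 26957777 per library. Keratin genes KRT8 and KRT18 were at 234 to 502 CPM (counts scaled to a common library size) in the group means, and with knockdown they rose in adherent cells (0.76 and 0.58 on the log2 scale) and fell in spheres (-0.21 and -0.44). EPCAM and CDH1, epithelial surface genes, fell in both cultures, CDH1 by 4.71 on the log2 scale in spheres. Summed levels of 4 fibroblast markers reached 26.6 CPM at most, of 3 leukocyte markers 1.19 CPM and of 2 endothelial markers 0.905 CPM. The summed level of 4 cell cycle genes (MKI67, TOP2A, CCNB1, CCNA2) was 1901 to 2023 CPM in adherent shCtrl and 1146 to 1350 CPM in adherent shSigma libraries, and 819 to 954 against 802 to 876 CPM in spheres. In spheres the 4 genes did not move one way, with log2 fold changes from -0.63 to 0.41. There the group mean of MKI67 was 183 CPM in shCtrl and 244 CPM in shSigma, and that of CCNB1 177 and 115 CPM. The part of the cell cycle genes in the results below was not tested. In bulk RNA, fewer cells of a kind and less RNA per cell cannot be told apart.

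In adherent cells 8 of the 9 tested genes were called at an adjusted p under 0.05, 3 higher and 5 lower in shSigma. Calls were common in that comparison, since 50.0% of all 13764 genes tested were called, 22.3% higher and 27.7% lower. The libraries of the 2 groups did not overlap for 7 of the 9 genes, as for 57.9% of all genes. In tumor spheres 6 of the 9 genes were called, 4 higher and 2 lower, against a background of 61.1% called, 30.2% higher and 30.9% lower, and 7 of 9 did not overlap, against 66.8%. None of the 9 passed an absolute log2 fold change of 1 in either culture, whereas 13.7% of all genes tested in adherent cells and 13.1% in spheres were called past that size. Across the 4 tested fission genes the median log2 fold change was 0.43 in adherent cells and 0.23 in spheres, across the 3 fusion genes -0.31 and -0.08, and over all genes -0.01 and 0.00.

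**Figure D1:**
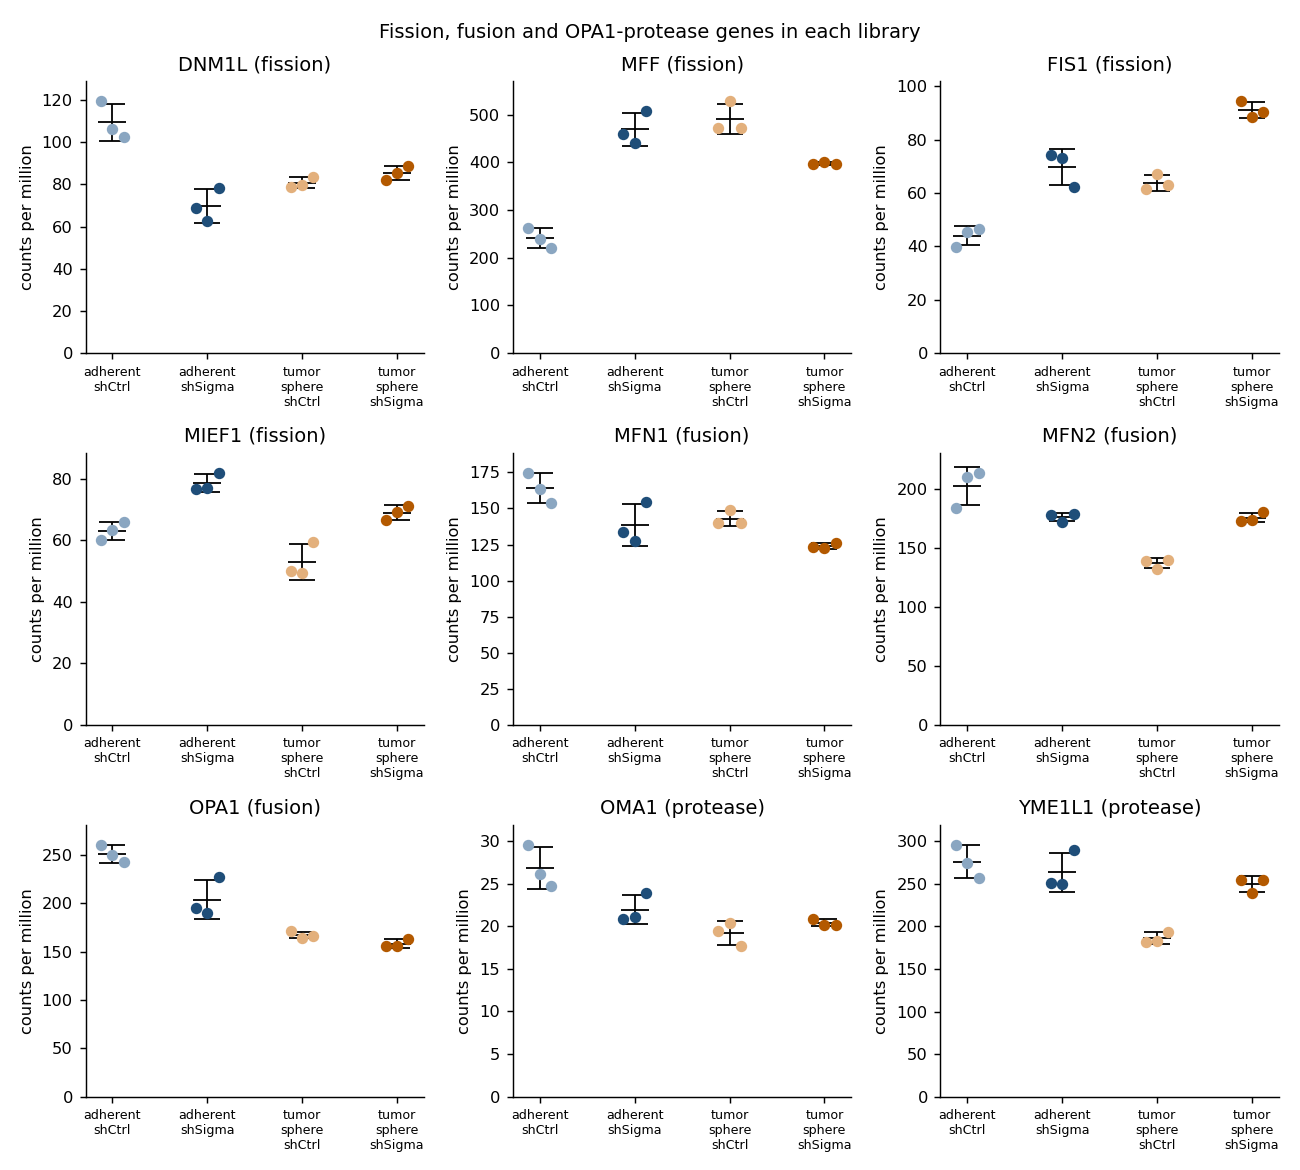
CPM of the 9 measured genes in each of the 12 libraries, 1 panel per gene with its role, on linear axes that start at 0. Points are libraries (3 per group), and the black bars give the mean and SD. In MFF the 3 adherent shCtrl libraries lie at 221 to 262 CPM and the other 9 at 396 to 529 CPM.

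Per kilobase of annotated exon, a scale that allows for gene length, MFF was the highest of these genes in every group. The length is that of the merged exons of all annotated transcripts. The annotation used for counting is not given, so the order of genes is approximate. Its level was 39.0 ± 3.3 CPM per kb (SD, n = 3) in adherent shCtrl cells, where it overlapped YME1L1 at 37.6 ± 2.7. In the other 3 groups MFF stood clear of the next gene, at 76.0 ± 5.6 in adherent shSigma, 79.5 ± 5.2 in sphere shCtrl and 64.4 ± 0.46 CPM per kb in sphere shSigma cells. The receptor gene therefore had more reads per kilobase than that of the dynamin it recruits in all 4 groups. DNM1L was at 13.6 ± 1.1, 8.66 ± 0.98, 10.02 ± 0.33 and 10.6 ± 0.39 CPM per kb in the same order, seventh or eighth of the 9. OMA1 was the lowest measured gene, between 5.17 and 7.21 CPM per kb, below MIEF1 in every group without overlap. OPA1 and MFN1 could not be ordered in adherent cells, nor OPA1 and MFN2 in sphere shSigma cells, because their libraries overlapped. The same held for MFN1 and FIS1 in adherent shCtrl, FIS1 and YME1L1 in adherent shSigma and YME1L1 and MFN1 in sphere shCtrl cells.

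DNM1L and MFF moved in opposite directions with knockdown in adherent cells. DNM1L was at 120, 106 and 103 CPM in adherent shCtrl and at 68.8, 62.5 and 78.2 CPM in adherent shSigma libraries. Every shSigma library was below every shCtrl library, and the fall was 0.72 on the log2 scale (SE 0.096, 95% confidence interval -0.94 to -0.49, adjusted p = 0.000698 by edgeR's quasi-likelihood test). In tumor spheres DNM1L was at 78.8, 79.9 and 83.8 CPM in shCtrl and 82.3, 85.3 and 88.6 CPM in shSigma libraries. Those groups overlapped, and the log2 difference of 0.08 had an interval of -0.05 to 0.20 (adjusted p = 0.272).

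MFF, the receptor that brings DRP1 to the outer membrane, was at 262, 240 and 221 CPM in adherent shCtrl and at 459, 442 and 509 CPM in adherent shSigma libraries. The 2 groups were far apart, with a rise of 0.90 on the log2 scale (SE 0.088, interval 0.69 to 1.10, adjusted p = 0.000167). In spheres it was at 472, 529 and 473 CPM in shCtrl and 396, 401 and 396 CPM in shSigma libraries. There the direction was the opposite, with all shSigma libraries lower, and the fall was 0.31 (SE 0.056, interval -0.43 to -0.19, adjusted p = 0.000523). MFF shares 8.2% of its exon bases with the divergent transcript MFF-DT on the other strand, which had 478 counts over all libraries, and whether counting used strand is not given in the sources used here.

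DNM1L, MFF and OPA1 are the genes whose adherent calls stayed when the median of the 40 nearest genes was subtracted. They were then at -0.56 (adjusted p = 0.00252), 0.81 (adjusted p = 0.000292) and -0.39 (adjusted p = 0.0038). The median was taken as fixed, so such p-values, here and below, leave out the spread among the neighbours. The DNA upstream of the starts of these genes is shown here, as far as it precedes the first annotated UTR base. The sequences are RefSeq's, build GRCh38.p14, each on the plus strand and written 5′ to 3′, from chr12:32679051-32679199, chr2:227325001-227325150 and chr3:193592958-193593143. Capitals mark matches to the motifs listed after them.
DNM1L: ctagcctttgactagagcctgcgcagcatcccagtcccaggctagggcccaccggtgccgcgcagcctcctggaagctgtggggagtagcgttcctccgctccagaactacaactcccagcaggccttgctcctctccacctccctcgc
MFF: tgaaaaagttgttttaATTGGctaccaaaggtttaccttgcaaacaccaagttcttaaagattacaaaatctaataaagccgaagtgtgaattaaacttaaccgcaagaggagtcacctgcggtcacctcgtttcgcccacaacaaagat
OPA1: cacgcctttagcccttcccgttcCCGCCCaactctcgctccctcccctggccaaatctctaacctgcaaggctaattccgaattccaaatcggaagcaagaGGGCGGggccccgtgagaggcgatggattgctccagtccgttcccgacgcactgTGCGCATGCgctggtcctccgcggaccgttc
Of the 10 genes 9 had an entry in the RefSeq promoter table, with 12 start sites. Both strands of the 250 bases before each start were searched for 6 motifs, the E-box CACGTG, the NRF1 motif TGCGCATGC, the ETS motif CCGGAAG, the GC box GGGCGG, the CRE TGACGTCA and the CCAAT box, and matches of different motifs overlapped 0 times. The NRF1 motif was found upstream of OPA1 only, in 1 of the 12 windows, and in 1.3% of all 35116 windows searched. GC boxes lay in 9 of the 12 windows, of 8 genes, and in 42.6% of all windows. CCAAT boxes lay in 7 windows, of 5 genes, and in 32.0% of all. The windows of DNM1L and of the first MFF start each held 1 GC box and 1 CCAAT box, so these letters did not tell those windows apart. Both DNM1L matches and the MFF GC box lie in the part not printed, from the first annotated UTR base on. The windows of the other MFF starts held CCAAT boxes and 0 GC boxes. ETS motifs lay upstream of FIS1, MIEF1 and MFN1, 3 windows, and in 8.52% of all, while the E-box (6.34% of all) and the CRE (1.65%) matched 0 of the 12.

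FIS1, a small tail-anchored outer-membrane protein also linked to mitochondrial turnover, was higher with knockdown in both cultures. Its adherent levels were 39.9, 45.3 and 46.6 CPM in shCtrl and 74.1, 73.2 and 62.1 CPM in shSigma libraries, a rise of 0.61 on the log2 scale (SE 0.11, adjusted p = 0.0026). In spheres the levels were 61.4, 67.1 and 62.9 CPM against 94.4, 88.5 and 90.3 CPM, a rise of 0.51 (SE 0.058, adjusted p = 1.30e-05). Neither culture had an overlap between groups. The 40 tested genes nearest to FIS1 on chromosome 7 had a median log2 fold change of 0.70 in adherent cells and 0.66 in spheres. With that median subtracted, FIS1 was at -0.09 (adjusted p = 0.516) in the former culture and -0.15 (adjusted p = 0.0442) in the latter, so its rise was no larger than that of its chromosomal surroundings.

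MIEF1, whose product MiD51 is an anchored DRP1 receptor, showed smaller rises. In adherent cells it was at 60.1, 63.2 and 65.9 CPM in shCtrl and 76.7, 77.0 and 81.8 CPM in shSigma libraries (log2 fold change 0.25, SE 0.059, adjusted p = 0.00891). In spheres it was at 49.9, 49.3 and 59.5 CPM against 66.4, 69.2 and 71.2 CPM (log2 fold change 0.38, SE 0.079, adjusted p = 0.00144). The groups were apart in both. After subtraction of its neighbours' median the sphere difference was 0.42 (adjusted p = 0.000816) and the adherent one 0.12 (adjusted p = 0.134).

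MIEF2, the gene of the related receptor MiD49, had 0 counts in all 12 libraries. The genes FLII, TOP3A and SMCR8, which lie beside it on chromosome 17, were also listed at 0, whereas LLGL1, ALKBH5 and SHMT1 just outside them had 11320, 32229 and 4966 counts in all. The zero is therefore shared with a run of adjoining rows, and no level of MIEF2 is given here.

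All 3 fusion genes were called lower in adherent shSigma cells. OPA1, the inner-membrane dynamin, was at 261, 250 and 243 CPM in shCtrl and 195, 190 and 227 CPM in shSigma libraries. No library overlapped, and the fall was 0.37 on the log2 scale (SE 0.074, interval -0.54 to -0.19, adjusted p = 0.0047). Its neighbours on chromosome 3 had a median of 0.03, and OPA1 stood at -0.39 (adjusted p = 0.0038) with that subtracted. In spheres OPA1 was at 171, 165 and 167 CPM in shCtrl and 156, 156 and 163 CPM in shSigma libraries. These did not overlap, but the difference of -0.08 (interval -0.19 to 0.02) had an adjusted p of 0.159. Relative to its neighbours, at 0.21, it was -0.29 (adjusted p = 0.00037).

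MFN1 was at 175, 163 and 154 CPM in adherent shCtrl and 133, 127 and 155 CPM in adherent shSigma libraries, so that shSigma replicate 3 lay within the shCtrl range. Its log2 fold change was -0.31 (SE 0.085, adjusted p = 0.0179) and in spheres -0.21 (SE 0.050, adjusted p = 0.00343), where 140, 149 and 140 CPM stood against 123, 122 and 126 CPM without overlap. Both calls ended when the median of the 40 nearest genes was subtracted (adjusted p = 0.266 and 0.263).

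MFN2, the mitofusin that also tethers the endoplasmic reticulum, was lower with knockdown in adherent cells and higher in spheres. The adherent levels were 185, 210 and 214 CPM in shCtrl and 178, 172 and 179 CPM in shSigma libraries. Replicate 1 of shCtrl was close to the shSigma range, and the log2 fold change was -0.26 (SE 0.067, adjusted p = 0.0134). In spheres shCtrl libraries were at 139, 132 and 140 CPM and shSigma libraries at 173, 174 and 180 CPM, well apart, with a rise of 0.36 (SE 0.051, interval 0.25 to 0.47, adjusted p = 8.28e-05). The sphere rise was 0.37 (adjusted p = 7.81e-05) relative to its neighbours, while the adherent value turned to 0.15 (adjusted p = 0.103), the neighbours on chromosome 1 being at -0.42.

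The proteases that cut OPA1 differed from each other. OMA1, the stress-activated one, was at 29.6, 26.1 and 24.7 CPM in adherent shCtrl and 20.9, 21.0 and 23.9 CPM in adherent shSigma libraries (log2 fold change -0.36, SE 0.10, adjusted p = 0.0229). Its sphere libraries overlapped, at 19.5, 20.4 and 17.7 CPM against 20.9, 20.1 and 20.2 CPM, with a difference of 0.08 (interval -0.10 to 0.27, adjusted p = 0.404). The surroundings of OMA1 were lower by more, with medians of -0.61 and -0.60. Relative to them OMA1 in adherent cells was at 0.26 (adjusted p = 0.0789) and OMA1 in spheres at 0.69 (adjusted p = 2.56e-05). The sphere value reflects the neighbours' median, taken as fixed, and not a called change of OMA1 itself.

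YME1L1, the ATP-dependent protease of the inner membrane, was at 296, 275 and 257 CPM in adherent shCtrl and 251, 249 and 290 CPM in adherent shSigma libraries, which overlapped (log2 fold change -0.13, interval -0.33 to 0.06, adjusted p = 0.223). Its adherent neighbours were at 0.24, and relative to them it was -0.37 (adjusted p = 0.00851). In spheres it was at 182, 183 and 194 CPM in shCtrl and 255, 240 and 255 CPM in shSigma libraries. That rise of 0.42 (SE 0.052, adjusted p = 2.70e-05) did not exceed the median of its 40 neighbours on chromosome 10, 0.55, and with this subtracted YME1L1 was at -0.13 (adjusted p = 0.0436). The ratio of OMA1 to YME1L1 per kilobase was 0.191 ± 0.0050 in adherent shCtrl and 0.164 ± 0.0020 in adherent shSigma cells, and 0.204 ± 0.021 and 0.161 ± 0.0049 in spheres (SD, n = 3).

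**Figure D2:**
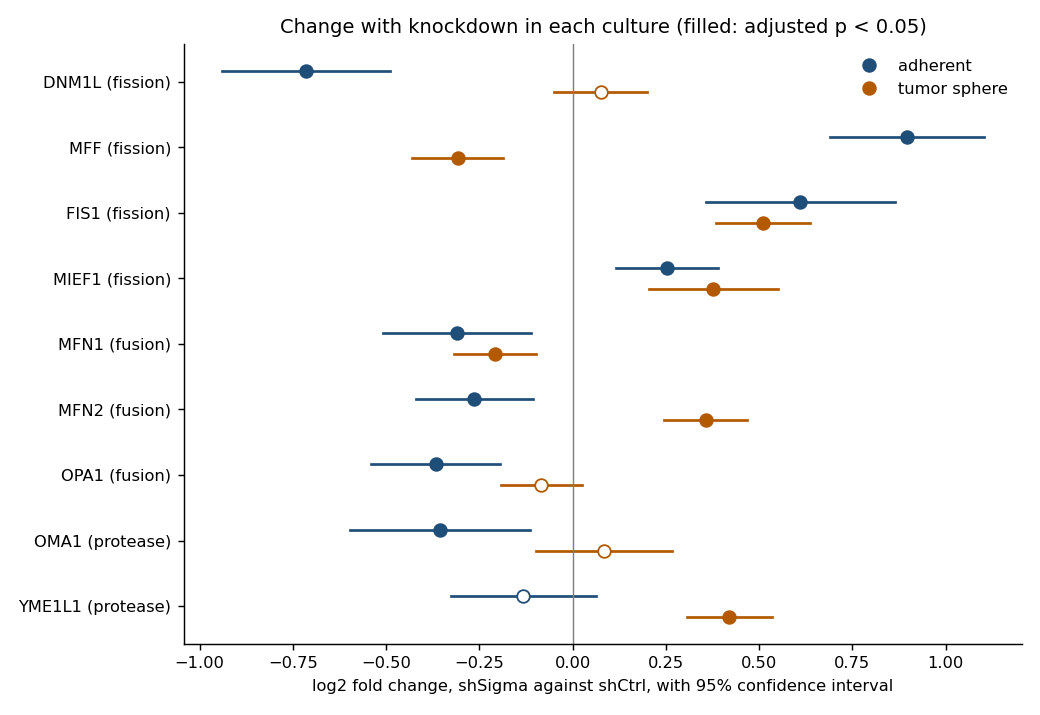
Log2 fold change of shSigma against shCtrl for the 9 measured genes in adherent cells (blue) and tumor spheres (orange), with 95% confidence intervals from edgeR's fit on 3 against 3 libraries. Filled points passed an adjusted p of 0.05. DNM1L (-0.72 and 0.08), MFF (0.90 and -0.31) and MFN2 (-0.26 and 0.36) lie on opposite sides of 0 in the 2 cultures.

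The adherent calls of the fusion genes and OMA1 ended when some single libraries were left out, while the fold changes stayed below 0. The log2 fold change of OPA1 ran from -0.42 to -0.25 over these fits. Without adherent shSigma replicate 1, shSigma replicate 2 or shCtrl replicate 2, 4 genes were called in place of 8, and the calls lost were those of MFN1, MFN2, OPA1 and OMA1, with adjusted p = 0.0899, 0.0751 and 0.0661 for OPA1. MFN1 and OMA1 also lost theirs without shCtrl replicate 1 (adjusted p = 0.142 and 0.146). DESeq2 ended the calls of MFN1, MFN2 and OMA1 (adjusted p = 0.0549, 0.0628 and 0.0783). In spheres 6 genes were called whichever library was left out.

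Fission was set against fusion within each library as the mean log2 CPM of the 5 fission genes minus that of the 3 fusion genes. In adherent cells it was -3.11, -3.13 and -3.11 in shCtrl and -2.57, -2.56 and -2.68 in shSigma libraries. All shSigma libraries were higher, by 0.51 (SE 0.040, n = 3 and 3), and by 0.57 (SE 0.035) when MIEF2, listed at 0, was left out. In spheres the shCtrl libraries were at -2.54, -2.47 and -2.46 and the shSigma libraries at -2.38, -2.37 and -2.40, again all higher, by 0.11 (SE 0.028), or 0.14 (SE 0.033) without MIEF2. MIEF2 at 0 lowers the level of the score in every group. Without it the mean score was -1.13 in adherent shCtrl and -0.56 in adherent shSigma cells, and -0.47 and -0.32 in spheres. No test was run on this score because its genes were chosen with earlier results known.

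The genes within the score did not all move one way. In adherent cells DNM1L alone, set against the mean of both mitofusins, went the other way, from -0.74 ± 0.13 to -1.16 ± 0.077 (SD, n = 3), a difference of -0.43. In spheres that difference was 0.0016 and the groups overlapped. The adherent difference of the whole score was 0.16 and the sphere one 0.034 when each gene was read relative to its 40 neighbours. Leaving out FIS1 gave 0.41 and 0.016.

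Between the RNA of the receptor and that of the dynamin the shift was larger. In adherent cells this follows from the choice of the pair. There MFF had the highest log2 fold change of the 9 tested genes (0.90) and DNM1L the lowest (-0.72). MFF per DNM1L, per kilobase, was 2.86, 2.95 and 2.81 in adherent shCtrl and 8.71, 9.21 and 8.49 in adherent shSigma libraries. In spheres it was 7.81, 8.63 and 7.37 in shCtrl and 6.28, 6.14 and 5.83 in shSigma libraries. Knockdown thus went with a higher ratio in adherent and a lower ratio in sphere cells, without overlap in either, and adherent shCtrl was the one group below 5.83. DNM1L per summed MFF, FIS1 and MIEF1 was 0.189 ± 0.013, 0.0690 ± 0.0064, 0.0822 ± 0.0053 and 0.0852 ± 0.0037 (SD, n = 3) in adherent shCtrl, adherent shSigma, sphere shCtrl and sphere shSigma cells. Among the 3 receptors, FIS1 made up 29.2% ± 0.24 in sphere shCtrl and 40.9% ± 1.0 in sphere shSigma cells, and MFF 65.1% ± 1.0 and 51.8% ± 0.77. In adherent cells FIS1 made up 34.1% ± 3.2 in shCtrl and 31.1% ± 3.5 in shSigma cells and MFF 54.2% ± 3.9 and 60.6% ± 3.3, and the groups overlapped for both. Among the mitofusins, MFN1 made up 64.2% ± 1.6 of the sum in sphere shCtrl and 54.8% ± 0.21 in sphere shSigma cells, and 58.2% ± 3.4 and 57.4% ± 2.1 in adherent cells, where the groups overlapped.

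**Figure D3:**
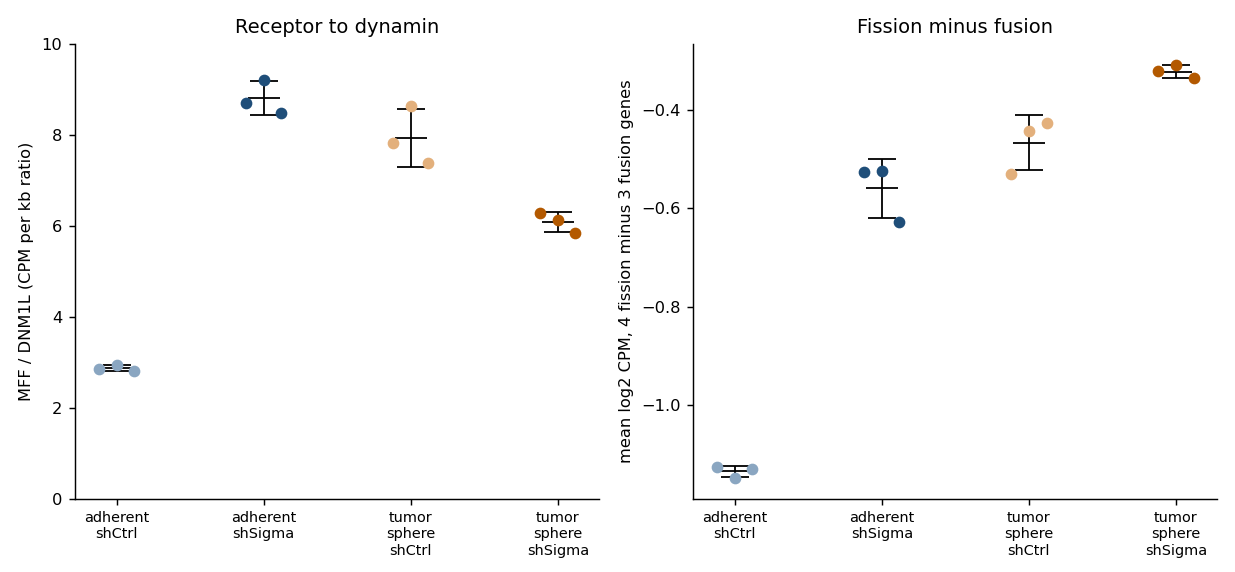
Left, the ratio of MFF to DNM1L in CPM per kilobase. With knockdown in adherent cells these genes had the highest and the lowest log2 fold change of those tested. Right, the mean log2 CPM of DNM1L, MFF, FIS1 and MIEF1 minus that of MFN1, MFN2 and OPA1. Points are the 3 libraries of each group and black bars the mean and SD. On the left adherent shCtrl sits near 2.87 and the other groups between 5.83 and 9.21. On the right adherent shCtrl is lowest, near -1.13, and sphere shSigma highest, near -0.32.

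An interaction term of 1 fit over the 12 libraries tested whether the difference between shSigma and shCtrl cells depended on the culture. It was called for 5 of the 9 genes, against 28.4% of all 14175 genes tested. MFF had the interaction farthest from 0 (sphere minus adherent -1.27, SE 0.11, adjusted p = 1.71e-06), followed by DNM1L (0.73, SE 0.12, adjusted p = 0.000428). Both stayed past the threshold relative to their neighbours, at -1.23 and 0.67. MFN2 (0.56, adjusted p = 0.000353) and YME1L1 (0.49, adjusted p = 0.00294) did not, at 0.14 (adjusted p = 0.284) and 0.01 (adjusted p = 0.940). OMA1 was at the threshold (0.38, adjusted p = 0.0463), and 8 of the 12 fits that each left out 1 library ended its call. The rest were not called, with intervals of -0.40 to 0.10 for FIS1, -0.17 to 0.30 for MIEF1, -0.19 to 0.27 for MFN1 and 0.01 to 0.43 for OPA1. The adjusted p of OPA1 was 0.110 and ran from 0.00198, without adherent shSigma replicate 3, to 0.213 over the alternatives.

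Spheres were also set against adherent cells of the same hairpin, using the same libraries, so these values are not independent of those above. In shCtrl cells all 9 genes were called, 2 higher and 7 lower in spheres, where 53.7% of all genes were called, 27.4% higher and 26.3% lower. MFF was higher in spheres by 1.03 on the log2 scale (SE 0.082, adjusted p = 3.39e-05) and FIS1 by 0.54 (SE 0.083, adjusted p = 0.00101). The members that were lower included OPA1 (-0.59, SE 0.055), YME1L1 (-0.57, SE 0.068), MFN2 (-0.57, SE 0.071) and DNM1L (-0.44, SE 0.074). In shSigma cells 5 of 9 were called, 2 higher and 3 lower, against 47.1% of all genes, 21.9% higher and 25.2% lower. There DNM1L was higher in spheres (0.31, SE 0.073, adjusted p = 0.00934) and MFF lower (-0.22, SE 0.051, adjusted p = 0.00956). FIS1 was higher (0.40) and OPA1 lower (-0.34) in that comparison too, and MIEF1, lower by 0.25 in shCtrl and 0.16 in shSigma cells, lost both calls when single libraries were left out. Without replicate 1 or 3 of sphere shCtrl or replicate 2 of adherent shCtrl, MFN1 was no longer called in shCtrl cells, with adjusted p between 0.0929 and 0.107. Relative to their neighbours FIS1 was no longer called in either hairpin (0.08 and -0.08), nor YME1L1 in shCtrl cells (-0.11, adjusted p = 0.214).

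**Figure D4:**
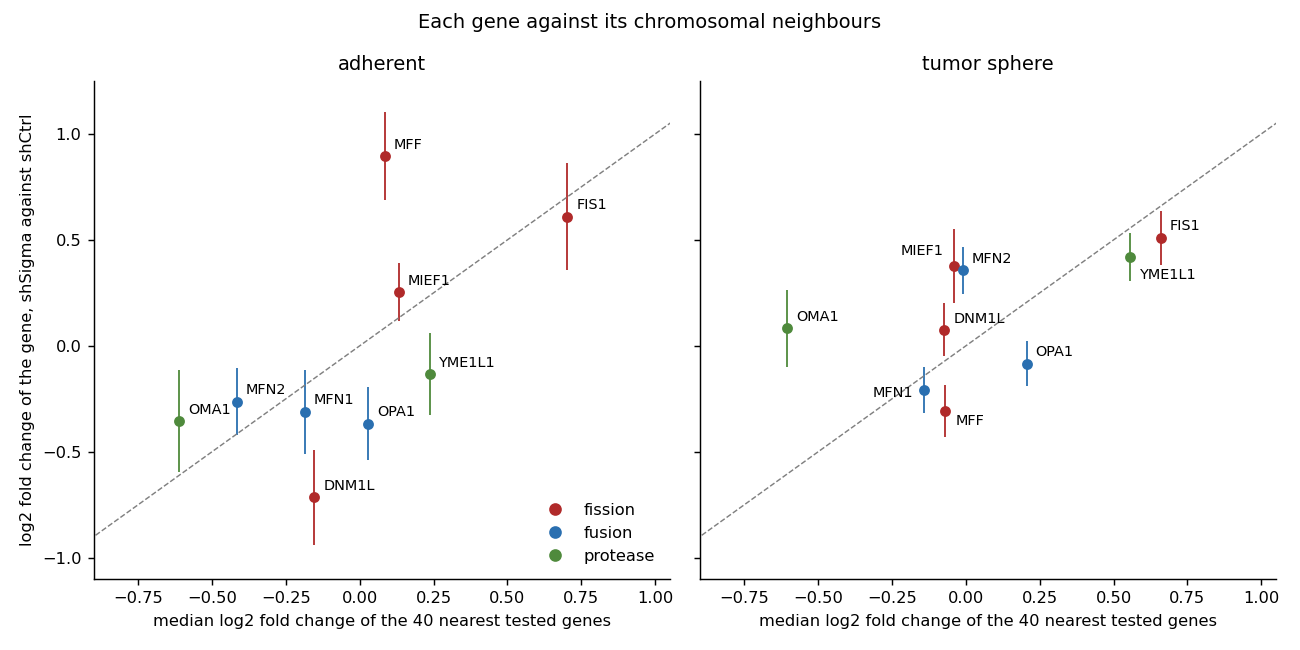
Log2 fold change of each gene with knockdown (vertical axis, 95% confidence interval) against the median log2 fold change of the 40 tested genes nearest to it on its chromosome (horizontal axis), in adherent cells and in tumor spheres. On the dashed line a gene equals its neighbours. FIS1 (0.61 and 0.51, neighbours 0.70 and 0.66) lies near the line in both cultures, whereas adherent MFF (0.90, neighbours 0.09) and DNM1L (-0.72, neighbours -0.15) lie away from it.

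Across the 12 libraries, in 4 groups that differ in hairpin and culture, the levels most like those of DNM1L among 10774 genes were those of NCL (Pearson's r = 0.98 of log2 CPM), NOP56 (0.97) and GNL2 (0.97), which encode nucleolar proteins. For MFN2 they were ZBED3 (0.97), JAM3 (0.97) and STC2 (0.96). These are descriptions over libraries that share groups and scaling.

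Of 46 further genes of mitochondrial dynamics 43 were tested, and MTFP1 and PPP2R2B were among those too low. In adherent cells 5 were higher and 14 lower with knockdown and in spheres 11 higher and 16 lower, with medians of -0.12 and -0.07 over the 43. The total share called was close to that of all genes, 50.0% in adherent cells and 61.1% in spheres. By direction the background was 22.3% higher and 27.7% lower in adherent cells and 30.2% and 30.9% in spheres. The calls of the 43 genes leaned more to the lower side than this in both cultures. The counts of each list below stand against the same background shares. The list with the medians farthest from 0 in the lower direction was that of other fission factors, with 1 of 9 higher and 7 lower in adherent cells and 1 higher and 6 lower in spheres, and medians of -0.37 and -0.48. GDAP1, an outer-membrane protein that promotes fragmentation, fell by 2.26 (SE 0.12, adjusted p = 1.46e-05) and by 1.15 (SE 0.086, adjusted p = 4.24e-07). MTFR2 and MTFR1, regulators that promote fission, fell by 1.15 and 0.69 in adherent cells and by 0.48 and 0.53 in spheres, and MTFR1 relative to its neighbours was at -0.15 (adjusted p = 0.193) in adherent cells. SLC25A46, an outer-membrane carrier-family protein, fell by 0.28 and 0.66. DNM2, a dynamin of endocytosis, rose in adherent cells (0.43, adjusted p = 0.0376), and INF2, a formin that builds actin around constriction sites, rose in spheres (0.91, adjusted p = 0.00057). Adherent INF2 was at 0.73 with an interval of -0.23 to 1.69, sphere DNM2 at 0.09, and the interaction was called for neither gene.

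Fusion factors and scaffolds of the inner membrane had 0 higher and 3 lower of 10 in adherent cells and 3 higher and 4 lower in spheres, where 50.0% and 61.1% of all genes were called. STOML2, a scaffold that binds prohibitins, fell by 0.59 (adjusted p = 0.000465) and by 0.64 (adjusted p = 8.34e-06). The prohibitin genes PHB1 and PHB2, which build rings that stabilise OPA1, fell by 0.62 and 0.26 in adherent cells. In spheres PHB1 fell by 0.23 and PHB2 rose by 0.24. Of the kinases, phosphatases and anchors that act on DRP1, 1 of 10 was higher and 2 lower in adherent cells and 1 higher and 4 lower in spheres. CDK1, which phosphorylates DRP1 in mitosis, fell by 0.91 (SE 0.089) and 0.69 (SE 0.084). The cell cycle genes given above were lower in adherent cells and mixed in spheres, and their part was not tested. PPP3CA, the catalytic calcineurin subunit that dephosphorylates DRP1, rose by 0.59 (SE 0.073) and 0.49 (SE 0.067). PRKACA, a catalytic subunit of protein kinase A, fell by 0.32 in spheres and was at -0.04 (adjusted p = 0.659) in adherent cells.

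Ubiquitin and SUMO enzymes gave 1 higher and 1 lower of 7 in adherent cells and 1 higher and 2 lower in spheres, with medians of 0.04 and -0.02. MARCHF5, an outer-membrane ubiquitin ligase, was at 0.04 in adherent cells and fell by 0.22 in spheres, and USP30, a deubiquitinase of the same membrane, was at 0.21 (adjusted p = 0.0506) and -0.10. Transport genes were higher in 2 and lower in 1 of 7 in adherent cells, and higher in 5 and lower in 0 in spheres, with medians of 0.28 in both, beside the same 50.0% and 61.1% of all genes called. ARMCX3, which acts in mitochondrial transport, rose by 0.84 (SE 0.067) and 0.45 (SE 0.065). The Miro gene RHOT1 rose by 0.28 in adherent cells and RHOT2 by 0.61 in spheres, and the kinesin gene KIF5B fell by 0.29 and rose by 0.23. KIF5B turned to -0.18 in spheres relative to neighbours on its chromosome. Among the further genes named here, at least 1 alternative ended the adherent calls of SLC25A46 (highest adjusted p = 0.222), MTFR1 (0.193), KIF5B (0.164), PHB2 (0.145), DNM2 (0.106) and RHOT1 (0.0910) and the sphere call of RHOT2 (0.178). DESeq2 was among those that ended the calls of SLC25A46, PHB2 and RHOT1 (adjusted p = 0.0938, 0.0580 and 0.0523).

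**Figure D5:**
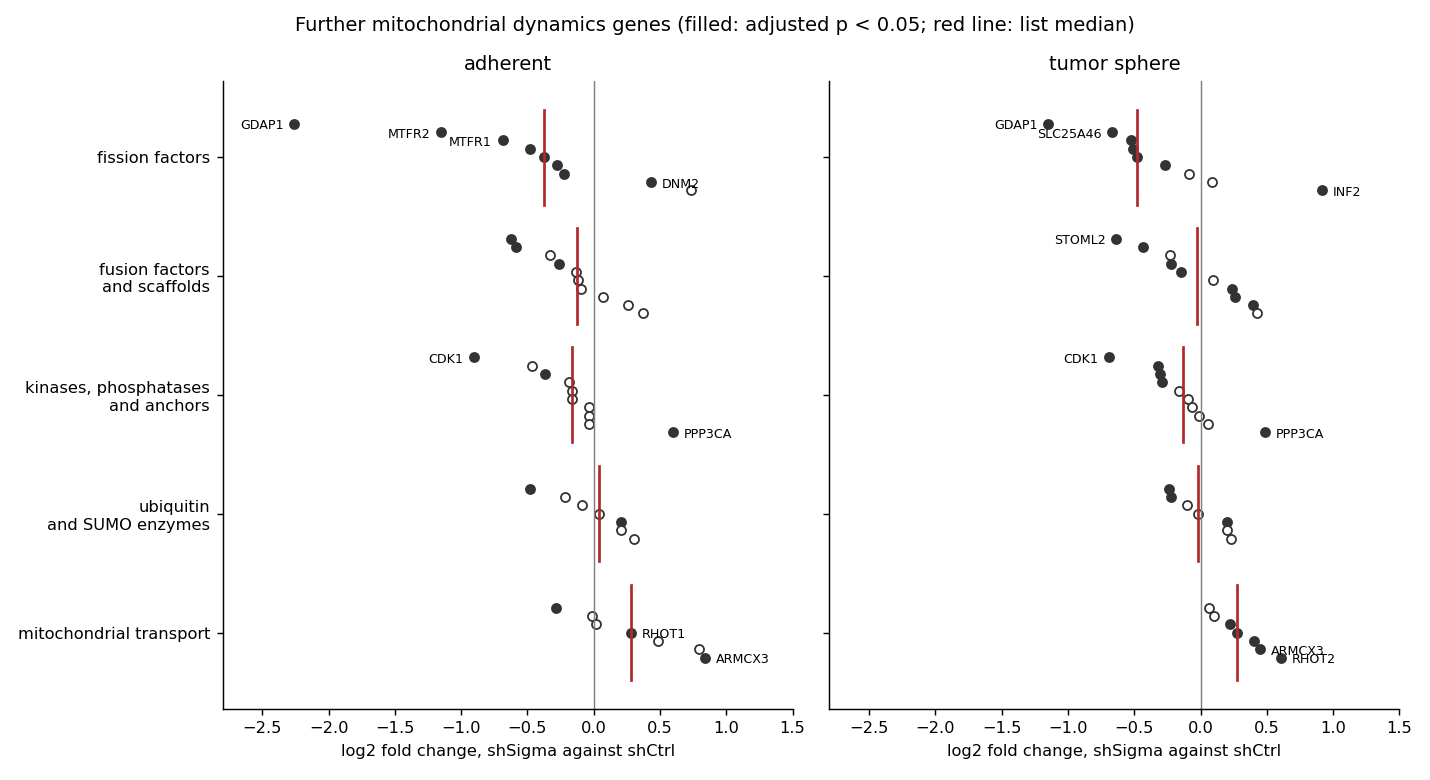
Log2 fold change with knockdown of the 43 further dynamics genes, grouped in 5 lists, in adherent cells and tumor spheres. Each point is 1 gene from a fit of 3 against 3 libraries, filled where the adjusted p was under 0.05, and the red line is the list's median. Fission factors lie mostly left of 0 (medians -0.37 and -0.48) and transport genes mostly right of it (0.28 in both).

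Genes of general mitochondrial proteins, called mitochondrial content genes here, were read beside these. Their RNA does not measure the amount of mitochondria. The study reported that mitochondrial footprint and mass by flow cytometry were unchanged after the knockdown, while the mitochondria were shorter. Of 9 (VDAC1, VDAC2, VDAC3, TOMM20, TOMM22, TOMM40, CS, HSPD1 and TFAM), 0 were higher and 5 lower in adherent shSigma cells, with a median of -0.28, and 1 was higher and 4 lower in spheres, with a median of -0.04. Of all genes 50.0% and 61.1% were called, so only the total called was near the background. By direction the background was 22.3% higher and 27.7% lower in adherent cells and 30.2% and 30.9% in spheres. The calls of the 9 genes leaned to the lower side in both cultures. Over all genes the medians were -0.01 and 0.00. TFAM, the mitochondrial DNA packaging factor, was the lowest, at -0.68 and -0.57, and TOMM20, an import receptor, the highest, at 0.16 (adjusted p = 0.132) and 0.24 (adjusted p = 0.00142). The summed level of the 9 was 1996 to 2298 CPM in adherent shCtrl and 1715 to 1993 CPM in adherent shSigma libraries, and 1783 to 1905 against 1632 to 1720 CPM in spheres. Its part in the changes of the fission and fusion genes was not tested.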

How the data were processed

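RNA-seq counts of 12 DU145 libraries were analysed, 3 per group, grouped by the sample labels. The authors aligned reads of directional libraries to GRCh38.p12 with STAR (version 2.6.1c in the submitters' processing notes), counted them per gene and deposited raw counts without normalization. The annotation, the use of strand and the handling of reads with several alignments are not given in the sources used here. Of 28747 identifiers, 26153 had a symbol in the GENCODE annotation and 7841 were at 0 in all libraries. No column was left unused.

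Log2 fold changes were fitted here with edgeR 4.0.16 (R 4.3.3), using TMM scaling, filterByExpr at a minimum count of 10 and the robust two-sided quasi-likelihood test on the 6 libraries of each comparison, or all 12 for the interaction. P-values were adjusted by Benjamini-Hochberg over all genes tested and called under 0.05. CPM used TMM factors of all 12 libraries, so ratios of printed CPM can differ from fitted folds, and log2 CPM a prior count of 2. Levels per kilobase used merged GENCODE exons. Errors are the SD over libraries, the SE of the fit or, for the score of fission minus fusion, the SE of the difference. Neighbour-corrected values subtract the median of the 40 nearest tested genes. That median was entered in the fit as a fixed value, so the adjusted p leaves out the spread among the neighbours. A small one can therefore reflect the neighbours' shift alone, where the gene itself did not change.

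Members, lists and tests were chosen with earlier results of these data known. Named were all 10 genes, of the further genes the 4 highest and 4 lowest called per culture and those called in the interaction, the highest and lowest mitochondrial content gene, and the 3 genes most correlated with DNM1L and MFN2. FLII and the other neighbours of MIEF2 were named after their values were seen. A chi-square comparison of replicates gave 2.73 to 43.9 per gene, above the value near 1 of pure counting error, so no library was counted as a repeat of another. The procedure was tested on simulated data. Alternatives were DESeq2 1.42.0, other scalings, filters and thresholds, 1 fit of all libraries, the replicate block, each library left out and other definitions of the score. The level of the gene targeted by the knockdown is not reported here. Figures were drawn with matplotlib 3.10.9.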

Additional observations from a re-analysis of the deposited data

Results flagged for a closer look

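The interaction test of edgeR on 12 libraries is given as the log2 difference of tumor spheres minus adherent cells. It called 28.4% of all 14175 genes tested. Of the 9 fission and fusion genes tested, 4 were called higher and 1 lower. Of the 43 further genes tested, 5 were called higher and 5 lower, a share not above that of all genes. In 15 genes the effect of the hairpin differed between cultures by this test. Among the fission and fusion genes these were DNM1L (0.73), MFF (-1.27), MFN2 (0.56), OMA1 (0.38) and YME1L1 (0.49). Among the further dynamics genes, GDAP1 (1.04), MTFR2 (0.61), KIF5B (0.45), PHB2 (0.44) and PHB1 (0.34) were less reduced or higher in spheres, and for SLC25A46 (-0.45), ARMCX3 (-0.45), USP30 (-0.37), PRKACA (-0.34) and MARCHF5 (-0.33) the log2 fold change was lower in spheres than in adherent cells, ARMCX3 having risen in both. With DESeq2 the calls of OMA1, USP30 and MARCHF5 ended (adjusted p = 0.0504, 0.0674 and 0.0855). At least 1 other alternative ended those of MFN2 (highest adjusted p = 0.284), YME1L1 (0.940), KIF5B (0.820), PRKACA (0.0625) and MTFR2 (0.0510). Groups of 3 libraries are too small for a test of single outlying libraries.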

How the results depend on the processing

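Members called with knockdown numbered 8 in adherent cells, 5 with DESeq2, 5 at an adjusted p under 0.01, 4 with neighbours' medians subtracted, 0 past a log2 fold change of 1 and 4 to 9 with 1 library left out. The replicate numbers do not pair the samples, since same-numbered adherent libraries deviated with correlations of -0.46, 0.0023 and -0.73. Among those with different numbers the correlation reached 0.71, for shCtrl replicate 1 with shSigma replicate 3. The replicate block gave 4 members and 10 further genes. The coefficient of variation between replicates in the fit was 14.4% in the adherent and 6.89% in the sphere comparison. Calls in the 2 cultures are therefore not equally sensitive. Past a fold change of 1 there were 0 members in spheres, 1 between cultures in shCtrl, 0 in shSigma and 1 in the interaction. The 5 members called in the interaction became 3 with neighbours subtracted. Further genes, 19 in adherent cells, numbered 10 to 20 with 1 library left out, 12 at 0.01 and 2 past a fold change of 1, in spheres 1 past it, and in the interaction 5 at 0.01 and 1 past it. The fission minus fusion difference of 0.51 in adherent cells and 0.11 in spheres became 0.57 (adherent) without MIEF2, 0.58 and 0.072 without both MIEF genes, 0.41 and 0.016 without FIS1, 0.37 and 0.0028 with the proteases assigned, 0.91 and 0.042 as a summed ratio, and 0.16 and 0.034 with neighbours subtracted. DNM1L against the mitofusins gave -0.43 and 0.0016. With neighbours subtracted the sign turned for FIS1 (-0.093 adherent, -0.15 sphere, -0.082 between cultures in shSigma, 0.015 interaction), MFN2 (0.15 adherent, -0.21 between cultures in shSigma), OMA1 (0.26 adherent), YME1L1 (-0.13 sphere, 0.016 between cultures in shSigma) and KIF5B (-0.18 sphere, -0.036 interaction). A fit of all 12 libraries gave MFN2 -0.0029 between cultures in shSigma and PRKACA 0.023 in adherent cells, where upper-quartile scaling gave PRKACA 0.016. Values that turned when 1 library was left out ran from -0.0010 to 0.14 for DNM2 (sphere), -0.16 to 0.43 for INF2 (interaction), -0.017 to 0.17 for MARCHF5 (adherent), -0.032 to 0.040 for PRKACA (adherent), -0.55 to 0.051 for RHOT2 (interaction) and -0.15 to 0.016 for STOML2 (interaction). Of 1540 single-gene values, 1366 kept direction and side of the threshold, 126 lost and 24 gained a call, and 24 turned direction, and the cause was not tested. Low counts did not limit the members, which had at least 333 counts in every library apart from MIEF2.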
